A study of Mus musculus with 6 samples.

Results

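The genes described are the aminoacyl-tRNA synthetases of mouse lung epithelial cells given cigarette smoke extract. They are 36 genes chosen by symbol, 20 for cytosolic and 16 for mitochondrial enzymes (symbols ending in 2), out of 36047 genes with a transcript in the data. All 36 had enough counts to be tested, among 13451 tested genes. RNA-seq of polyA RNA was made from MLE-12 cells of genotype WT, a mouse lung epithelial line that carries the large T antigen of a virus and is therefore a model of 1 immortal line. They grew in DME/F12 medium with 2% serum, insulin-transferrin-selenium and antibiotics. The CSE group (3 libraries) received cigarette smoke extract, a solution of smoke constituents, at 5% and an optical density of 2 when the cultures were at 30% density. The PBS group (3 libraries) received the same volume of buffer, and both were harvested after 24 h. Whether the 3 libraries of a group stem from separate cultures is not stated, so the p-values speak to the spread among these libraries only, and that spread may be technical.

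Aminoacyl-tRNA synthetases attach each amino acid to its tRNA, the step that turns the genetic code into protein. Nuclear genes encode separate sets for the cytosol and for the mitochondrion, and a few genes, Kars and Gars among them, serve both compartments. In the cytosol several synthetases sit in a multisynthetase complex held together by the scaffold proteins Aimp1, Aimp2 and Eef1e1. Uncharged tRNA activates the kinase Gcn2 (Eif2ak4), which raises translation of the transcription factor ATF4. ATF4 in turn is known to drive genes of amino acid synthesis and transport and many of the cytosolic synthetase genes, through a DNA element called the C/EBP-ATF response element (CARE).

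That element was looked for in the promoter windows that RefSeq gives on GRCm38.p6, from 250 bases before to 50 bases after a gene's start, for 26 of the 36 synthetase genes. The motif searched was TGATGNAA on both strands. It was found in the windows of 4 of them, Gars, Iars, Tars and Yars, and in 3.97% of all 32851 windows. The 30-base stretches around it are shown because elements of this kind are known to be bound by ATF4. They are written 5′ to 3′ on the gene's strand, with the motif or its reverse complement in capitals.
Yars, chr4:129189895-129189924, plus strand: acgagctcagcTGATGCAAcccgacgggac
Gars, chr6:55037960-55037989, plus strand: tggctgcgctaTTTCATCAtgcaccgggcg
Iars, chr13:49682126-49682155, plus strand: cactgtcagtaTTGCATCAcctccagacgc
Tars, chr15:11399655-11399684, minus strand: caggagtcccgTTGCATCAgctggttagct
For comparison, of 17 ATF4 targets of amino acid synthesis and transport 15 had a window, and the motif was in 5 of these. Among them are Asns, the enzyme that makes asparagine, and Slc7a11, the cystine transporter, with the element as follows.
Asns, chr6:7693214-7693243, minus strand: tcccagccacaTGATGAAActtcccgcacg
Slc7a11, chr3:50443653-50443679, minus strand: TGATGCAAacctggagaatTTGCATCA
Of the 6 synthetase genes that changed (below), 4 had a window, and the motif was in that of Yars. A match is a run of letters and says nothing of binding, and a window without one says only that these letters are not in it.

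Library totals lay between 12093009 and 24050167 estimated counts. The epithelial line's markers were present, since 5 of 6 epithelial and 5 of 5 alveolar type 2 markers reached 1 TPM (transcript abundance per length, scaled to a fixed sum in each library). The summed epithelial level was 1180 to 1300 TPM with PBS and 614 to 699 with CSE, mostly Krt19, while Krt18 reached at most 0.55 TPM. The summed alveolar type 2 level was 204 to 234 TPM with PBS and 177 to 187 with CSE, mostly Nkx2-1, Lpcat1 and Abca3. The surfactant genes Sftpc and Sftpb were low, at 0.9 to 3.67 and 0.692 to 1.9 TPM, and fell below 1 TPM in some libraries. The extraction text of the labels speaks of lung tissue, so markers of other lung cells were read too. Endothelial markers summed to at most 2.18 TPM, with Cdh5 at 0 in every library, and immune markers to at most 7.77 TPM. Fibroblast markers summed to between 868 and 1130 TPM with PBS and between 477 and 544 with CSE, nearly all of it Dcn. Col1a1 had 14.3 to 15.2 TPM with PBS and 8.45 to 9.59 with CSE. Pdgfra went the other way, with 2.5 to 2.81 TPM and 3.98 to 5.11, while Col1a2 and Col3a1 stayed under 1 TPM. The part of these marker shifts in the changes below was not tested. In bulk RNA, fewer cells of a kind and less RNA per cell cannot be told apart.

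The levels of the genes were compared per transcript length, in TPM summed over all annotated transcripts of a gene, coding or not. The cytosolic genes ranged from a mean of 48.3 TPM for Wars to 356 TPM for Kars, with a median of 110. The mitochondrial genes ranged from 1.74 TPM for Mars2 to 84.9 TPM for Lars2, with a median of 20.1. Together the cytosolic genes made up 0.255% of all TPM with PBS and 0.268% with CSE, and the mitochondrial genes 0.0407% in both groups.

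The upper end of the order was held by the dual-compartment genes. Kars (lysyl-tRNA synthetase) had 344 ± 21.2 TPM with PBS and 368 ± 29 with CSE, and Gars (glycyl-tRNA synthetase) 292 ± 16.8 and 290 ± 25.5 (SD, n = 3 each). Nars, the asparaginyl enzyme, came next at 188 ± 16.7 TPM with PBS. At the lower end of the cytosolic set, Tars (threonyl) had 49.8 ± 2.38 TPM and Wars (tryptophanyl) 47.5 ± 1.89 TPM with PBS, a gap close to their SD. Many neighbours in the middle, such as Mars, Iars, Vars and Farsa at 108 to 112 TPM with PBS, did not differ beyond their spread.

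Among the mitochondrial genes the lowest levels were those of Pars2 (prolyl), at 4.54 ± 0.763 TPM, and Mars2 (methionyl), at 1.76 ± 0.0574 TPM with PBS. The highest were those of Lars2 (leucyl), at 94.5 ± 36.3 TPM, and Yars2 (tyrosyl), at 53.1 ± 0.971 TPM. For 16 of 17 pairs of a cytosolic and a mitochondrial gene for the same amino acid, the cytosolic transcript was the more abundant with PBS. The PBS mean of the ratio ran from 0.949 for Lars over Lars2 to 62.2 for Mars over Mars2.

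**Figure D1:**
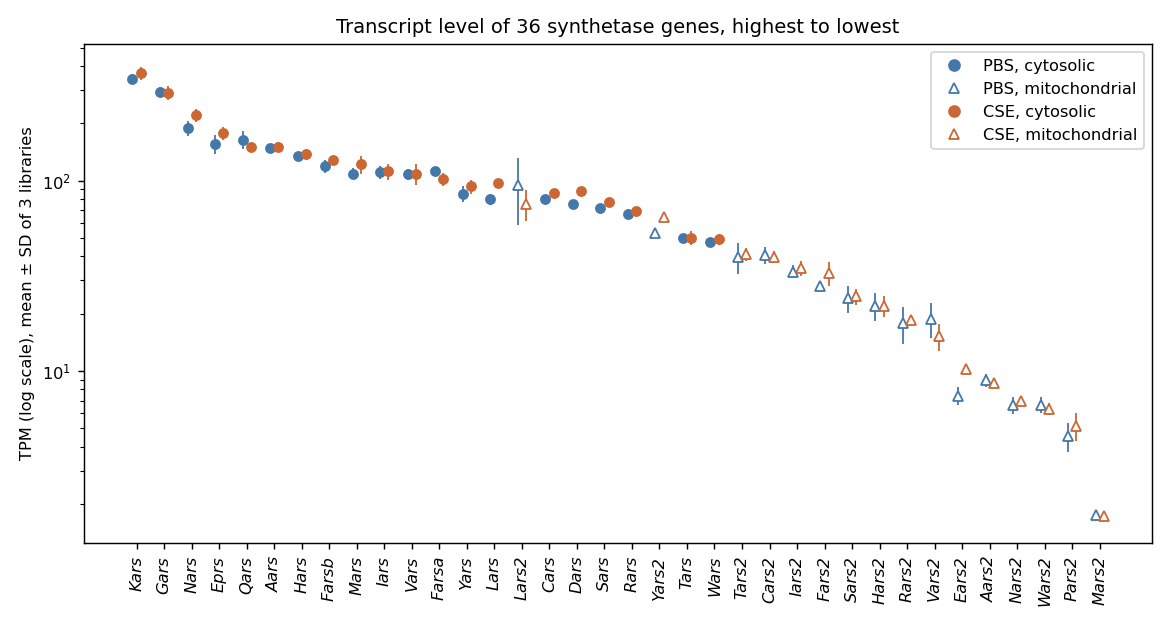
Transcript level of the 36 synthetase genes in TPM on a log axis, as the mean of 3 libraries with SD bars, for PBS (blue) and CSE (orange), with circles for cytosolic and triangles for mitochondrial genes, ordered by the mean of all 6 libraries. Apart from Lars2 at 84.9 TPM and Yars2 at 58.6 TPM, every mitochondrial gene lies below the lowest cytosolic gene, Wars, at 48.3 TPM. Levels count all annotated transcripts of a gene, coding or not.

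Gene counts were set against TMM-scaled library totals. With smoke extract, 6 of the 36 genes rose and 0 fell by edgeR's quasi-likelihood test at an adjusted p under 0.05. These were Lars, Dars, Nars and Yars in the cytosolic set (4 of 20) and Ears2 and Yars2 in the mitochondrial set (2 of 16). That is 16.7% of the family, where 4.32% of all tested genes were called higher (581) and 7.12% lower (958). With GC and length trends removed the split over all genes was 778 higher and 728 lower, and 7 cytosolic and 4 mitochondrial synthetase genes were called, all higher, without Dars. All 6 changes were small, between 0.23 and 0.45 on the log2 scale. At an unadjusted p under 0.05, 10 of the 20 cytosolic and 6 of the 16 mitochondrial genes passed, against 26.0% of all genes, and all 16 were fitted above 0. DESeq2 and limma-voom each called 5 cytosolic and 2 mitochondrial genes, with 0 lower. Limma was also run on log2 TPM, which sets counts against transcript length and has no TMM scaling, so test and scaling differ as well. At log2(TPM + 1), 0 of the 36 genes were called, and over all genes 224 were higher and 774 lower. The medians there were 0.07 for the cytosolic set, 0.05 for the mitochondrial set and -0.06 over all genes, and the log2 changes were 0.42 for Ears2, 0.28 for Lars and 0.27 for Yars2. A sign near 0 on the TPM scale is to be read against that -0.06. With an offset for effective transcript length in edgeR, 3 cytosolic and 2 mitochondrial genes were called, at medians of 0.15 and 0.13.

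The largest cytosolic change was that of Lars (chromosome 18, 42202298 to 42262194, GRCm38), the leucyl-tRNA synthetase, which is also known as a leucine sensor for mTORC1. Its scaled CPM (counts set against the TMM-scaled library total) were 112, 121 and 115 with PBS and 151, 140 and 157 with CSE. All CSE libraries lay well above all PBS libraries. The log2 change was 0.36 ± 0.07 (SE), with a 95% interval of 0.20 to 0.52 and an edgeR adjusted p of 0.00808. Lars was called in each of the 6 fits that left out 1 library.

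Dars (chromosome 1, 128363707 to 128417368), the aspartyl-tRNA synthetase and a member of the complex, had 98.3, 96.6 and 89.3 CPM with PBS and 118, 115 and 117 CPM with CSE. The CSE libraries were close to each other and above every PBS library. Dars rose by 0.30 ± 0.07 on the log2 scale, with an edgeR adjusted p of 0.0147. Nars (chromosome 18, 64499647 to 64516652), which charges asparagine, had 258, 284 and 255 CPM with PBS and 342, 307 and 327 CPM with CSE. Again the groups did not overlap, with the second PBS library the nearest to the CSE values. Nars rose by 0.29 ± 0.08 on the log2 scale, with an edgeR adjusted p of 0.0309. Both calls were lost when PBS replicate 3 or any CSE library was left out, with log2 changes of 0.26 to 0.31 for Dars and 0.25 to 0.33 for Nars.

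Yars (chromosome 4, 129189760 to 129219607), the tyrosyl-tRNA synthetase, was the smallest change called. Its CPM were 121, 121 and 120 with PBS and 141, 148 and 135 with CSE, so the PBS libraries were nearly equal and all CSE libraries higher. The log2 change was 0.23 ± 0.07, with an edgeR adjusted p of 0.0476. This lay just inside the threshold, and the call was lost in each of the 6 fits with a library left out, with log2 changes between 0.20 and 0.27. With all libraries kept, Yars was called in 5 of 12 alternative fits. It was not called in edgeR with RLE scaling (adjusted p of 0.0512) or library-size scaling (0.073).

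The mitochondrial genes that rose serve glutamate and tyrosine. Ears2 (chromosome 7, 122037213 to 122067263), the glutamyl-tRNA synthetase of mitochondria, had 11.3, 11.8 and 11.9 CPM with PBS and 15.3, 16.2 and 16.5 CPM with CSE. The groups stood clearly apart although each library held only 150 to 388 counts of the gene. It rose by 0.45 ± 0.10 on the log2 scale, the largest estimate of the 36, with a 95% interval of 0.23 to 0.67 and an edgeR adjusted p of 0.0143. Yars2 (chromosome 16, 16302965 to 16309640) had 48.9, 46.1 and 44.2 CPM with PBS and 54.8, 58.7 and 65.3 CPM with CSE. Its CSE libraries were higher but spread more widely than the PBS libraries. It rose by 0.36 ± 0.08 on the log2 scale, with an edgeR adjusted p of 0.0178. The call of Ears2 was lost without CSE replicate 2 or 3, and that of Yars2 without PBS replicate 3 or CSE replicate 2 or 3, with log2 changes of 0.44 for Ears2 and 0.30 to 0.38 for Yars2.

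**Figure D2:**
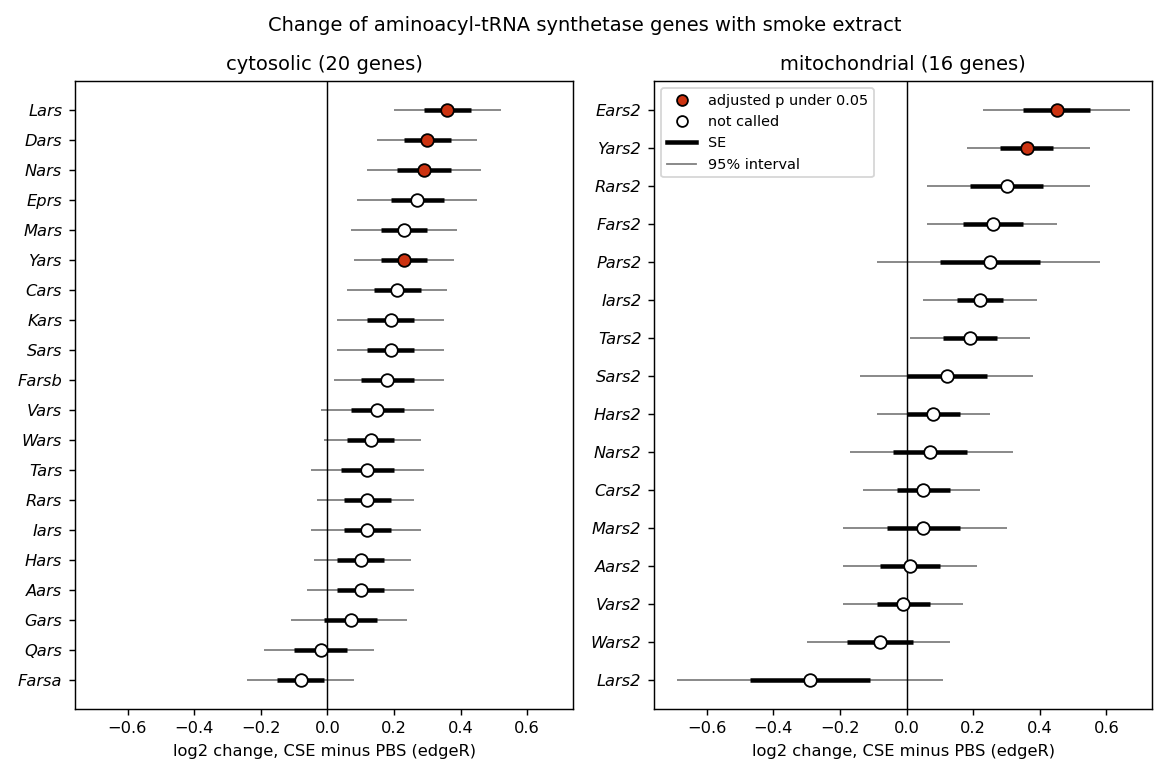
Log2 change of each synthetase gene from PBS to CSE (edgeR, 3 libraries a group), with SE as thick and the 95% interval as thin bars, in the cytosolic (left) and mitochondrial (right) sets, and filled circles at an adjusted p under 0.05. Nearly all points lie to the right of 0, with Lars at 0.36 and Ears2 at 0.45 the highest and Lars2 at -0.29 the lowest.

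The other 30 genes were not called. Just outside the threshold stood Eprs, the joint glutamyl and prolyl enzyme of the complex, at a log2 change of 0.27 and an edgeR adjusted p of 0.0617. Mars, the methionyl enzyme, was at 0.23 with an edgeR adjusted p of 0.0729, and Cars, the cysteinyl enzyme, at 0.21 with an adjusted p of 0.0786. In the mitochondrial set Iars2 (isoleucyl) was at 0.22 with an edgeR adjusted p of 0.0888, and Fars2 (phenylalanyl) at 0.26 with an adjusted p of 0.0998. These misses do not show that the genes were equal in the groups. The most abundant genes, Kars and Gars, had log2 changes of 0.19 ± 0.07 and 0.07 ± 0.08 (Gars -0.01 by TPM), and the scarcest, Mars2 and Pars2, 0.05 ± 0.11 (-0.02 by log2(TPM + 1)) and 0.25 ± 0.15. The SE of the log2 change lay between 0.07 and 0.08 in the cytosolic set, where the lowest count of a gene in a library was 1010. It lay between 0.07 and 0.18 in the mitochondrial set, where the lowest was 76.

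As groups, 18 of the 20 cytosolic and 13 of the 16 mitochondrial genes were fitted above 0, against 50.9% of all tested genes. The median log2 change was 0.17 in the cytosolic set and 0.10 in the mitochondrial set, against 0.01 over all tested genes. The order of the sets turned with GC and length trends removed, at medians of 0.21 and 0.23 (0.04 over all genes), and on protein-coding transcripts both were 0.15. The cytosolic exceptions were Farsa, a subunit of the phenylalanyl enzyme, at -0.08 and Qars, the glutaminyl enzyme, at -0.02, which was 0.01 on protein-coding transcripts. The partner subunit Farsb was at 0.18. The CPM of all CSE libraries lay above all PBS libraries for 13 cytosolic and 6 mitochondrial genes, where 15.1% of all tested genes did so. They lay below for 0 cytosolic genes and 1 mitochondrial gene, Wars2, where 16.2% of all tested genes did so. Without a filter on low counts, which tested more genes, and again without PBS replicate 2, 1 mitochondrial gene, Lars2, was called lower.

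**Figure D3:**
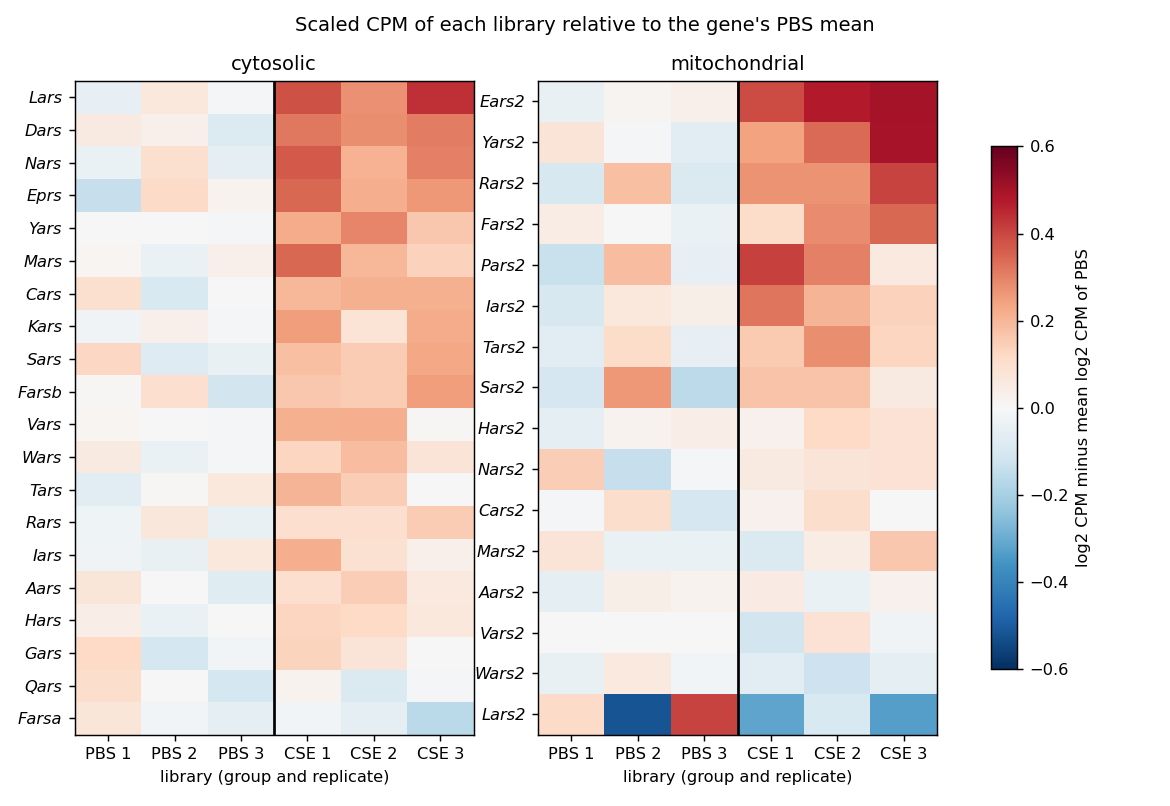
Log2 CPM of each library minus the mean log2 CPM of the PBS libraries, for each synthetase gene, with red above and blue below, cytosolic genes on the left and mitochondrial genes on the right, each sorted by change. The 3 CSE columns are mostly red in the cytosolic set, where all CSE libraries exceeded all PBS libraries for 13 of 20 genes, and mixed in the mitochondrial set, where this held for 6 of 16.

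Summed over the cytosolic set, scaled counts were 4094, 4084 and 3997 CPM with PBS and 4702, 4492 and 4462 CPM with CSE. Every CSE library was above every PBS library. The means were 4058 ± 53.4 and 4552 ± 131 CPM (SD, n = 3). In TPM the same sums were 2434, 2615 and 2586 with PBS and 2847, 2659 and 2535 with CSE, and here the groups overlapped. The mitochondrial sums overlapped on both scales, at 598.2, 567.0 and 636.8 CPM with PBS and 615.4, 647.0 and 617.6 CPM with CSE. These sums include the variable Lars2, at 166, 107 and 203 CPM with PBS and 123, 144 and 122 with CSE. With each gene weighted equally, the mean log2 CPM relative to the PBS mean separated the groups in this set too. It was -0.01, 0.02 and -0.01 with PBS and 0.1, 0.16 and 0.13 with CSE. By gene, TPM of all CSE libraries exceeded all PBS libraries for 6 cytosolic genes (Cars, Dars, Eprs, Lars, Nars and Sars) and for 2 mitochondrial genes (Ears2 and Yars2), where 7.89% of all tested genes did so. They lay below, as for 19.3% of all tested genes, for 1 cytosolic gene, Farsa, at 112 ± 2.47 TPM with PBS and 102 ± 7.77 with CSE.

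The balance between the compartments was read as the ratio of TPM within each library. For 16 of the 17 amino acid pairs the groups overlapped. The exception was Eprs over Ears2, with ratios of 20.6, 22.3 and 20.2 with PBS and 18.8, 16.4 and 17.0 with CSE. With 3 libraries against 3, an exact permutation test cannot give a p under 0.1, so these ratios are given as values only. The cytosolic gene had the larger log2 change in 10 pairs and the mitochondrial gene in 7.

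The 8 cytosolic genes of the multisynthetase complex were Dars, Eprs, Iars, Kars, Lars, Mars, Qars and Rars. Of these 2 rose (Lars and Dars), 7 were fitted above 0 and the median log2 change was 0.21. Of the 12 cytosolic genes outside the complex 2 rose (Nars and Yars), 11 were fitted above 0 and the median was 0.14. Over all tested genes 4.32% were called higher and 50.9% were fitted above 0. The scaffold genes had log2 changes of 0.17 for Aimp1, 0.21 for Aimp2 and 0.37 for Eef1e1, and 0 of 3 were called. Eef1e1 missed narrowly, with an edgeR adjusted p of 0.0519.

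Of 12 cytosolic genes that have been described as ATF4 targets, 3 rose (Lars, Nars and Yars), all 12 were fitted above 0 (all but Gars by TPM) and the median log2 change was 0.20. Of the other 8, 1 rose (Dars), 6 were fitted above 0 and the median was 0.13. The shares over all tested genes were 4.32% called higher and 50.9% fitted above 0. The 4 genes with the response element in the windows printed above had log2 changes of 0.23 for Yars, 0.12 for Iars, 0.12 for Tars and 0.07 for Gars. Among them only Yars was called.

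By enzyme class, which divides synthetases by the fold of their catalytic domain, 2 of 9 class I and 2 of 10 class II genes of the cytosolic set rose (Eprs has a domain of each). Both mitochondrial genes that rose were among the 9 of class I, and 0 of 7 class II genes were called. Over all tested genes 4.32% were called higher, so 0 of 7 does not set the classes apart. The mitochondrial median log2 change was 0.05 in class I and 0.12 in class II. The 7 class II genes were all fitted above 0, but Aars2, at 0.01, was at -0.01 with library-size scaling.

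Many of these genes are annotated with several transcripts, 292 over the 36 genes. In 22 of the genes over 80% of the TPM was given to protein-coding transcripts. In 6 genes the most abundant transcript is annotated as not protein coding. The protein-coding share was lowest for Qars, at 7.11%. For Lars 60.4% of the TPM was given to Lars-209, which is annotated as a target of nonsense-mediated decay (NMD). That transcript had 45.7, 57.8 and 39.8 TPM with PBS and 58.3, 57.9 and 61.1 with CSE. The protein-coding Lars-201 had 24.5, 26.4 and 32.8 TPM with PBS and 36.4, 30.3 and 33.4 with CSE, so the coding transcript overlapped between groups while the other was higher in all CSE libraries by a narrow margin. In a fit on protein-coding transcripts alone, chosen after seeing the data, Lars had a log2 change of 0.32 and was no longer called.

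For Nars the transcripts were split further, with 41.3% given to Nars-209 (NMD) and 27.0% to the coding Nars-201, which had 47.8, 55.7 and 51.9 TPM with PBS and 70.3, 54.4 and 50.2 with CSE. The last 2 values lie within the PBS range. Dars-201, the coding transcript with 98.4% of the TPM of Dars, had 73.3, 76.6 and 73.6 TPM with PBS and 91.3, 85.2 and 83.1 with CSE, higher in every CSE library. Yars-201 had 62.8, 63.4 and 67.1 TPM with PBS and 75.9, 74.7 and 66.0 with CSE, with overlapping groups. The fit on coding transcripts gave a log2 change of 0.30 for Nars, 0.29 for Dars, 0.24 for Yars and 0.43 for Yars2, each with an edgeR adjusted p under 0.05.

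In Ears2 the transcripts differed. The coding Ears2-201 had 4.85, 5.78 and 6.55 TPM with PBS and 8.65, 8.54 and 8.12 with CSE, higher in every CSE library. The intron-retaining Ears2-203 had 1.68, 1.54 and 1.61 TPM with PBS and 1.64, 1.51 and 1.78 with CSE, with overlapping groups. The log2 change of Ears2 was 0.63 on coding transcripts, against 0.45 on all. Yars2-201 likewise had 45.5, 44.3 and 42.6 TPM with PBS and 55.1, 52.4 and 60.0 with CSE, while the NMD transcript Yars2-203 had 5.22, 7.82 and 7.52 with PBS and 3.81, 7.72 and 4.02 with CSE. For both mitochondrial genes the coding transcript was higher in all CSE libraries.

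**Figure D4:**
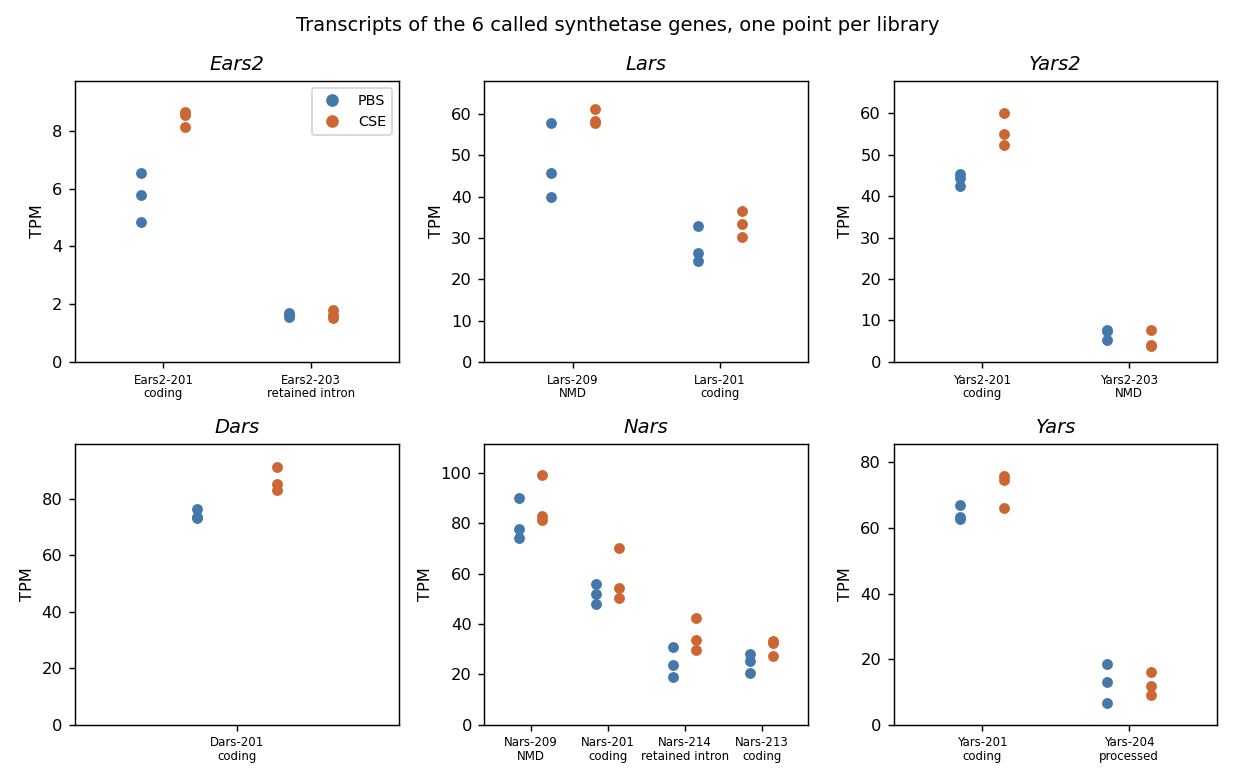
TPM of the main transcripts (over 8% of the gene's TPM) of the 6 synthetase genes that rose, 1 point per library, PBS in blue and CSE in orange, with the annotated type under each name (NMD, nonsense-mediated decay). The coding transcripts of Dars, Ears2 and Yars2 separate the groups, at up to 6.55 against at least 8.12 TPM for Ears2-201, whereas Lars-201, Nars-201 and Yars-201 overlap.

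Lars2, the leucyl-tRNA synthetase of mitochondria, was the most variable gene of the family. It had 166, 107 and 203 CPM with PBS and 123, 144 and 122 CPM with CSE, so the PBS libraries spanned all the CSE values. The log2 change was -0.29 ± 0.18, with a 95% interval of -0.69 to 0.11 and an edgeR adjusted p of 0.344. The spread sat in Lars2-209 (NMD), with 55.2, 32.2 and 68.9 TPM in the PBS libraries, and in the intron-retaining Lars2-205, with 22.8, 16.5 and 47.5 TPM. The coding Lars2-201 had 8.09, 10.2 and 14.6 TPM with PBS and 13.6, 14.3 and 10.9 with CSE. On coding transcripts alone the direction turned, to a log2 change of 0.31.

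The Kars gene makes its compartment forms by splicing, as known from human, where an extra exon gives the mitochondrial enzyme. The shorter coding transcript Kars-201, of 595 codons, took 87.6% of the gene's TPM. Kars-202, of 624 codons, holds an added exon of 180 bases (chromosome 8, 112008207 to 112008386, GRCm38) and took 10.2%. Kars-202 had 30.1, 30.6 and 35.8 TPM with PBS and 56.7, 32.0 and 33.3 with CSE. CSE replicate 1 was high and the other 2 CSE libraries lay within the PBS range. Gars, which uses alternative translation starts for its compartment forms, had 99.9% of its TPM in the single coding transcript Gars-201.

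Some synthetase transcripts share sequence with neighbours, and the strand setting of the counting is not given in the sources used here. Of the 31-base words in the top transcript, 36.8% of Iars2 also occur in Rab3gap2 and 19.7% of Cars2 in Naxd, both on the opposite strand. Hars and Hars2 overlap each other on opposite strands, by 8.42% of the words of Hars. Aars shares 22.7% with Exosc6, on the same strand and at 0 TPM in both groups, and Iars 17.8% with other transcripts, mostly Gm4849. The values of these 6 genes are uncertain to that extent. Of the 6 genes that rose, the top transcript of Ears2 shared 2.93% with Ubfd1 on the opposite strand, and those of the other 5 shared 0. Other transcripts of these genes were not compared, and for Lars and Nars the top transcript is an NMD one.

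Around the synthetases, 61 other genes of tRNA charging and use and of the ATF4 response were read from 9 lists. Of these 15 rose and 1 fell, where 4.32% of all tested genes were called higher and 7.12% lower. The 4 subunits of eEF1 (Eef1a1, Eef1b2, Eef1d and Eef1g), which carries charged tRNA to the ribosome, had log2 changes between 0.26 and 0.30. The CPM of all CSE libraries exceeded all PBS libraries for all 4, and 0 were called, the closest being Eef1g with an edgeR adjusted p of 0.0707. Of 4 mitochondrial elongation factors Gfm2, which acts in recycling of mitochondrial ribosomes, rose by 0.38 on the log2 scale, with an edgeR adjusted p of 0.0276, a call lost without PBS replicate 2 or any CSE library, at log2 changes of 0.33 to 0.43 over the 6 fits. Of 4 proofreading genes Dtd1, a deacylase that frees tRNA from D-amino acids, had 10.4, 10.4 and 9.36 CPM with PBS and 16.9, 17.4 and 16.8 CPM with CSE. It rose by 0.77 ± 0.10 on the log2 scale, with an edgeR adjusted p of 0.000723, and was called in each of the 6 fits with a library left out.

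Of the 4 genes that form glutaminyl- and formylmethionyl-tRNA in mitochondria 0 were called, the smallest p being that of Qrsl1 at a log2 change of -0.13. Of 2 genes of selenocysteinyl-tRNA synthesis 0 were called, with Pstk at 0.15. Of 8 genes of tRNA maturation and export 0 were called, and Rpp38, a subunit of RNase P, had a log2 change of 0.44 and an edgeR adjusted p of 0.11. Outside the lists of ATF4 regulators and targets, Dtd1 and Gfm2 were the only related genes called.

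Of 17 ATF4 targets of amino acid synthesis and transport 11 rose and 0 fell, against 4.32% and 7.12% of all tested genes, with a median log2 change of 0.28. Over the 17, 15 were fitted above 0 and 2 below. Slc38a2 was at -0.25 with an edgeR adjusted p of 0.116, and Slc1a5 at -0.09. For Slc38a2 the CPM of all CSE libraries lay below all PBS libraries. Slc7a11 had 29.2, 24.0 and 29.6 CPM with PBS and 96.2, 87.7 and 88.4 CPM with CSE. Asns had 349, 296 and 298 CPM with PBS and 497, 479 and 465 CPM with CSE. Both separated the groups widely, with log2 changes of 1.72 ± 0.09 for Slc7a11 and 0.61 ± 0.08 for Asns. Slc3a2, the heavy chain of amino acid transporters, and Psph, of serine synthesis, rose by 0.49 and 0.56. These 4 were called in each of the 6 fits with a library left out, as were Shmt2 and Slc7a5. The other 5 lost their calls in some of these fits. Psat1, Sesn2 and Chac1 were called in 1 of 6, Mthfd2 in 2 of 6, and Slc1a4 in 5 of 6, lost without CSE replicate 1. Psat1, Sesn2 and Chac1 lost theirs when any library other than PBS replicate 1 was left out, and Mthfd2 when PBS replicate 3 or any CSE library was, with log2 changes of 0.23 to 0.47 over these 4 genes. Of 15 eIF2 kinases and ATF4 regulators 2 rose and 1 fell, with a median of 0.11. In this list 10 were fitted above 0 and 5 below. Ddit3 (0.11), Ppp1r15a (-0.12) and Nupr1 (-0.08) were not called. Impact, an inhibitor of Gcn2, rose by 0.49 with an edgeR adjusted p of 0.00587, and Trib3, a pseudokinase that restrains ATF4, by 0.46 with an adjusted p of 0.0168. Eif2ak3, the kinase Perk of the endoplasmic reticulum, fell by 0.37 on the log2 scale, with an edgeR adjusted p of 0.037. The Atf4 transcript itself had 305 ± 13.5 CPM with PBS and 311 ± 18.4 with CSE, at a log2 change of 0.03, while in TPM its mean was lower with CSE, at 315 ± 6.2 and 303 ± 10.9, and the groups overlapped on both scales. With a library left out the call of Impact was kept in all 6 fits. That of Trib3 was lost without PBS replicate 3 or CSE replicate 2, at log2 changes of 0.37 to 0.53 over the 6 fits. That of Eif2ak3 was lost without PBS replicate 1 or 3 or CSE replicate 1 or 3, at log2 changes of -0.48 to -0.32.

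**Figure D5:**
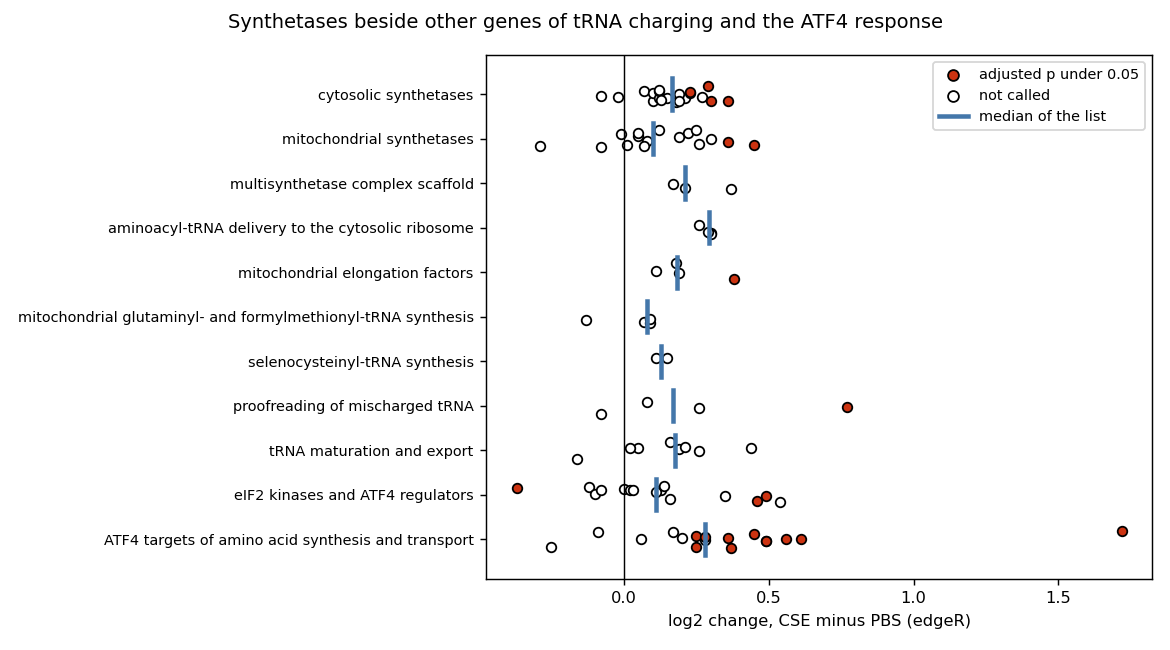
Log2 change from PBS to CSE (edgeR) of the synthetase sets and of 9 lists of related genes, 1 circle per gene, filled at an adjusted p under 0.05, with a blue line at the median of each list. The synthetases lie within -0.29 to 0.45. The ATF4 targets of amino acid synthesis and transport run from -0.25 to 1.72, with 11 of 17 called. The highest is Slc7a11, and the next is Asns at 0.61.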

How the data were processed

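RNA-seq was measured in 6 libraries, grouped by the sample titles. The deposited files list 118489 transcripts, and the authors gave a TPM value and an estimated count for each, with the column names of kallisto, per the file headers. TPM is scaled for transcript length and to the same sum in each library, so it keeps no depth. Per the submitters' processing notes, FastQC 0.12.1, fastp 0.20.1, kallisto 0.46.2 and DESeq2 1.40.2 were used with GRCm38, in roles that are not given. Transcripts were matched by identifier to GENCODE vM21 (98.6% matched) and both values were summed per gene. Summed counts were rounded.

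Genes passed filterByExpr (minimum count 10), were scaled by TMM and tested with edgeR (quasi-likelihood, two-sided), with p adjusted after Benjamini and Hochberg over 13451 genes and called under 0.05. The biological coefficient of variation was 9.17%. The SE is the log2 change divided by the square root of F. CPM are set against TMM-scaled library totals, and 3 counts correspond to 0.125 to 0.248 CPM. The procedure was tested on simulated counts. The promoter window of 1 gene is not reported here. No libraries of a group were duplicates, since chi-square per degree of freedom lay between 5.61 and 17.7 within groups.

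The members and lists were chosen with earlier results of these data known. Genes described in full were those called, the 3 of smallest p and the 2 of highest and lowest mean TPM in each set, and in related lists the called members, up to 4 by smallest p, or else the member of smallest p. Other genes named were chosen after their values were seen. The fit was repeated with DESeq2, limma-voom, RLE or library-size scaling, without a count filter, for genes of at least 5 CPM on average, and with an effective-length offset. It was also run by limma for genes of at least 1 TPM on average, as log2(TPM + 1) or log2(TPM + 0.1), after removal of GC and length trends (loess, span 0.5), with a block for the replicate number, without each library in turn and, added after seeing the data, protein-coding transcripts only. Tools were edgeR 4.0.16, DESeq2 1.42.0 and limma 3.58.1 in R 4.3.3, and Python 3.11.15.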

Additional observations from a re-analysis of the deposited data

How the results depend on the processing

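In the 18 alternatives tried the counts of called cytosolic and mitochondrial genes went from 4 and 2 to 0 and 0 with limma on log2(TPM + 1) or log2(TPM + 0.1), to 7 and 4 with GC and length trends removed, and to 1 and 1 with the replicate block. The medians were then 0.07 and 0.05 on both TPM scales and 0.21 and 0.23 with trends removed, where the mitochondrial one was the higher. The mitochondrial median was 0.13 with the length offset and 0.15 on protein-coding transcripts. With RLE or library-size scaling 3 cytosolic and 2 mitochondrial genes were called. Over all genes the calls were 998 (224 higher), 985 (220 higher) and 1022 (331 higher) in the TPM and block fits, against 1539 (581 higher), and 1054 were higher without a count filter, where 1 mitochondrial gene was lower. Related genes called went from 16 to 25 with no filter, to 7 and 8 on the TPM scales and to 9 with the block.

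With a library left out, all genes called ranged from 837 to 1941 (higher 281 to 967, lower 554 to 981), cytosolic genes from 1 to 5, mitochondrial genes from 0 to 4 (lower 0 to 1), related genes from 10 to 22, the cytosolic median from 0.14 to 0.17 and the mitochondrial from 0.08 to 0.17. Deviations of same-numbered libraries correlated at -0.124, 0.00608 and -0.0594, and those of libraries with unlike numbers at -0.0854 to 0.129. With 3 libraries a group these values cannot decide whether the replicate numbers pair the libraries.

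Of 648 gene and setting combinations 568 kept direction and call, and 24 reversed, almost all near 0. With a library left out, log2 changes ranged from -0.01 to 0.04 for Aars2, -0.01 to 0.10 for Cars2, -0.08 to 0.03 for Qars, 0.00 to 0.11 for Mars2 and -0.06 to 0.04 for Vars2. Otherwise Aars2 turned to -0.01 with library-size scaling, to 0.00 with a minimum of 5 CPM, to -0.04 and -0.05 on the TPM scales and to -0.04 on protein-coding transcripts. Those scales gave -0.01 for Gars, -0.02 for Cars2, and -0.02 and -0.03 for Mars2. Protein-coding transcripts gave 0.01 for Qars, 0.02 for Vars2 and 0.31 for Lars2, the length offset 0.00 for Wars2 and trend removal 0.18 for Vars2. The cause was not tested. Counts as low as 76 limit the scarcest mitochondrial genes.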
